A study of Mus musculus with 6 samples.

Results

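Transcripts of 10 feedback inhibitors of MAP kinase signalling were measured in bulk RNA from T cells collected after co-culture with ovarian cancer cells. Markers of other cell types were also present in these libraries. The genes are the dual-specificity phosphatases Dusp1, Dusp2, Dusp4, Dusp5, Dusp6 and Dusp10, the Sprouty genes Spry1, Spry2 and Spry4, and Spred1. They were taken by symbol from a table of 54532 mouse genes, and each symbol matched 1 row. Splenic T cells of C57BL/6 mice (6 to 8 weeks old), isolated with a pan-T-cell kit, were activated with anti-CD3/CD28 beads for 72 h, IL-2 being present at 10 ng/mL, and then met ID8 cells, an ovarian cancer line of mouse origin, in co-culture. In the cisplatin group (3 libraries) the ID8 cells had been pretreated with 40 μM cisplatin, and in the control group (3 libraries, titled WT) with PBS. The labels give cisplatin or PBS as the treatment of the sample, and that it was the ID8 cells that were pretreated comes from the study's text. All 6 libraries therefore hold activated T cells that met tumour cells, and no library of T cells alone or of ID8 cells alone was analysed here. The methods speak of biological replicates, but neither they nor the labels say whether the 3 libraries of a group came from separate mice or cultures, so p-values measure the spread between these libraries, which may be technical. The time in co-culture is not given in the sources used here.

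MAP kinase cascades carry signals from antigen, cytokine and growth factor receptors through RAS, RAF and MEK to ERK, and through parallel kinases to JNK and p38. Active ERK switches on the genes of its own inhibitors, so that DUSP, Sprouty and SPRED transcripts are often read as a trace of recent pathway output. DUSPs remove phosphate from the threonine and the tyrosine that activate a MAP kinase. Sprouty proteins act higher up, between receptors and RAF, and SPRED proteins bring the RAS inhibitor neurofibromin to the membrane. In T cells, receptor engagement induces several DUSPs within the first hours.

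Table values were FPKM, fragment counts scaled to gene length and library size, which allows levels of different genes to be compared. Whole reads could be rebuilt from them, and the libraries held 30606569 to 32169496 reads on genes. The libraries were not pure. The 24 T-cell markers summed to 3117 to 3183 FPKM in the cisplatin and 1953 to 2077 FPKM in the control libraries, and all 24 were higher in every cisplatin than in every control library. The 24 ID8 tumour markers summed to 284 to 295 FPKM with cisplatin and 1835 to 1920 FPKM in control, and 21 of them were lower in every cisplatin library. The 10 B-cell markers summed to 3619 to 3695 against 1690 to 1778 FPKM, and the 11 myeloid markers to 123 to 141 against 58.9 to 63.0 FPKM. None of these markers was at 0 in all libraries. Among defining markers, Krt19 of ID8 cells averaged 52.9 FPKM with cisplatin and 646 FPKM in control, Cd3e 39.7 and 31.9 FPKM, Cd79a of B cells 121 and 92.6 FPKM, and Lyz2 of myeloid cells 89.7 and 30.8 FPKM. The part of this change in cell make-up in the results that follow was not tested, and in such bulk RNA fewer cells of a type cannot be told apart from less RNA per cell.

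The control regions of the genes are shown because members of the family are known to answer to different transcription factors. RefSeq promoter windows on GRCm38.p6 were found for 8 of the 10 genes, and the 250 bases before the start site are printed for 5 of them. These are the pair that fell most, the gene whose cisplatin libraries all lay above control, and both further windows with a rare motif. Capitals mark the matches, on either strand, to the cyclic AMP response element (CRE, TGACGTCA), the E-box CACGTG, the ETS core CGGAAG, the AP-1 site TGANTCA and the CArG box of serum response factor. The CRE half-site TGACG was searched as well and is not marked.
Dusp1 (chr17:26508473-26508722, - strand): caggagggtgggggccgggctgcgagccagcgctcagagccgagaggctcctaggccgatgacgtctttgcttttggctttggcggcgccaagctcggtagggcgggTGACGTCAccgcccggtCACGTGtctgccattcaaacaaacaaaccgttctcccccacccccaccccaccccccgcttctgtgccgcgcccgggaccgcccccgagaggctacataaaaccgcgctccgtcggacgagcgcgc
Dusp2 (chr2:127335909-127336158, + strand): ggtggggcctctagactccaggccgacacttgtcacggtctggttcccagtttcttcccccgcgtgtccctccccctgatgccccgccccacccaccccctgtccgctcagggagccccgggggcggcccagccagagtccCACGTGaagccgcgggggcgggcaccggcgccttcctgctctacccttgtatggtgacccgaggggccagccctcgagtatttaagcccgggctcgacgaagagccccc
Dusp5 (chr19:53528895-53529144, + strand): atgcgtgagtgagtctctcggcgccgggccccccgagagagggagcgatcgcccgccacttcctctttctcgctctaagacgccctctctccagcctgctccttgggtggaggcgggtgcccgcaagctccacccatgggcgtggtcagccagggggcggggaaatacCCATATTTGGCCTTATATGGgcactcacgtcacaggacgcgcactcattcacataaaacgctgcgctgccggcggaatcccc
Dusp6 (chr10:99262981-99263230, + strand): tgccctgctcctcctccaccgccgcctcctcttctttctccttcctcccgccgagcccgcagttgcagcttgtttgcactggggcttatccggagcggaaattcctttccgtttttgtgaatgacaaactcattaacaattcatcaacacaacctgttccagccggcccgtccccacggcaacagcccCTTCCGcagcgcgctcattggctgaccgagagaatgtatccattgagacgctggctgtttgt
Spred1 (chr2:117120821-117121070, + strand): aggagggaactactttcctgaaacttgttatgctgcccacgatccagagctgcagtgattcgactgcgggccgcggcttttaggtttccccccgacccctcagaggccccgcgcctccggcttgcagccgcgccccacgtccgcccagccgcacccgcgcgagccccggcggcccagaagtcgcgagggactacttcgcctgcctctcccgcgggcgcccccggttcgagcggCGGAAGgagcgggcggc
The Dusp1 window held a CRE, letters that stood in 1.55% of 32851 mouse windows of this length, and an E-box (6.02% of windows). Dusp2 held an E-box. Dusp5 held a pair of CArG boxes next to each other, from base 82 to base 63 before the start, and a CArG box was found in 1.47% of windows. Dusp6 and Spred1 each held the ETS core, which stood in 13.6% of windows. No match to the AP-1 site (6.75% of windows) was found in the 8 windows, and none of the searched motifs was found in the windows of Dusp10, Spry1 and Spry2. The RefSeq start of Dusp10 lies 21079 bases inside the gene as the table draws it. By the same count it lies at 47 bases for Dusp1, 36 for Dusp5 and -303 for Spred1, so before the drawn gene for Spred1. The half-site stood in 17.8% of windows and in those of Dusp1, where 2 of its 3 matches lie inside the full CRE, and Dusp5. These are matches of letters and not measured binding sites.

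With limma, log2(FPKM + 0.1) was compared over 15874 genes that averaged 0.5 FPKM or more. A gene was called where the groups differed 2-fold or more and the Benjamini-Hochberg adjusted p-value was under 0.05. All 10 genes entered the test, Spry4 through its control level alone, since its cisplatin libraries lay under 0.5 FPKM. Dusp6, Spred1 and Spry4 were called lower with cisplatin-pretreated ID8 cells, 3 of 10 beside 12.8% of all tested genes. None of the 10 was called higher (4.11% of all tested genes). At the adjusted p-value without the fold-change minimum, limma found 5 of the 10 lower (Dusp4, Dusp5, Dusp6, Spry4 and Spred1), beside 29% of all tested genes, and 1 higher (Dusp2), beside 27.5% (56.5% in either direction). The same 5 genes had every cisplatin library below every control library (32.3% of all tested genes), and Dusp2 had every cisplatin library above (31.9%, and 64.2% for either direction). The median log2 fold change of the 10 genes was -0.29, and that of all tested genes was 0.03. The 10 genes were chosen with earlier results of these data known. The shares and medians therefore describe these genes and do not test whether they differ from other genes as a set.

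**Figure D1:**
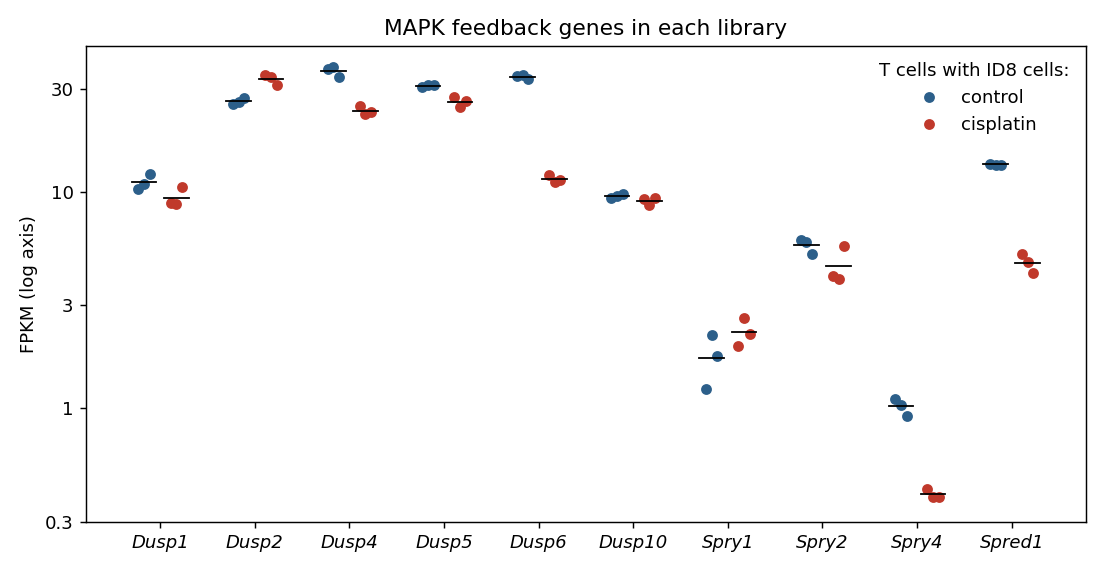
FPKM on a log axis of the 10 feedback genes in each of the 6 libraries, with blue points for control, red points for cisplatin and black bars for the group means. Dusp6, Spry4 and Spred1 show the widest gaps, Dusp2 alone has all its red points above the blue ones, and the points of Dusp1, Dusp10, Spry1 and Spry2 overlap.

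Dusp6 is a cytoplasmic phosphatase with a strong preference for ERK, and its transcript fell most among the 10. The gene (ENSMUSG00000019960) lies on chromosome 10 from 99263231 to 99267489 of mm10, and no other gene of the table overlaps it. Dusp6 had 11.9, 11.1 and 11.3 FPKM in the cisplatin libraries and 34.5, 34.7 and 33.2 FPKM in the control libraries. The groups were far apart and each was tight. On the log2 scale Dusp6 fell by 1.57 (standard error 0.04, 95% interval -1.67 to -1.47, limma, adjusted p = 4.2e-07), 2.96-fold lower with cisplatin. Behind these levels stood 1149 to 1211 reads per cisplatin library and 3193 to 3261 per control library. Of the 15874 tested genes, 8.56% had a log2 fold change as low as that of Dusp6 or lower.

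Among the nuclear phosphatases, Dusp4, which acts on ERK and JNK, showed the largest difference. Dusp4 (ENSMUSG00000031530, chromosome 8 from 34807297 to 34819894) had 24.9, 23.0 and 23.5 FPKM with cisplatin and 37.2, 37.7 and 34.1 FPKM in control. All cisplatin libraries lay below all control libraries. Dusp4 fell by 0.61 on the log2 scale (standard error 0.05, limma, adjusted p = 8.0e-05), 1.52-fold lower and so under the 2-fold minimum. Dusp5, a nuclear phosphatase selective for ERK (ENSMUSG00000034765, chromosome 19 from 53529109 to 53542431), had 27.5, 24.8 and 26.3 FPKM with cisplatin and 30.5, 31.2 and 31.1 FPKM in control. The groups did not overlap, and Dusp5 fell by 0.24 on the log2 scale (standard error 0.04, limma, adjusted p = 0.0033). The drop of Dusp5 was thus small beside that of Dusp6.

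Dusp2, a nuclear phosphatase first known from activated T cells, was the exception in direction. Dusp2 (ENSMUSG00000027368, chromosome 2 from 127336159 to 127338376) had 34.6, 34.0 and 31.3 FPKM with cisplatin and 25.4, 26.1 and 27.1 FPKM in control. Every cisplatin library lay above every control library. Dusp2 rose by 0.34 on the log2 scale (standard error 0.05, 95% interval 0.23 to 0.46, limma, adjusted p = 0.0010) on the FPKM as deposited, and -0.24 (limma, adjusted p = 0.0040) when each library was centred on its T-cell markers. The T-cell marker Cd3e had a log2 fold change of 0.32 on the deposited scale, and the median over the 24 T-cell markers was 0.61. The sign for Dusp2 thus depends on the scale, and on the T-cell markers used, since its log2 fold change was close to that of Cd3e and below the median of the 24.

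Dusp1, the immediate early phosphatase that acts on p38, JNK and ERK, did not pass the test in the main comparison. Dusp1 (ENSMUSG00000024190, chromosome 17 from 26505590 to 26508519) had 8.92, 8.77 and 10.5 FPKM with cisplatin and 10.4, 10.9 and 12.1 FPKM in control. The highest cisplatin library, replicate 3, lay above the lowest control library. Its estimated log2 fold change was -0.24 (standard error 0.09, limma, adjusted p = 0.057), and without cisplatin replicate 3 it was -0.32 (limma, adjusted p = 0.016). With any other library left out instead, the adjusted p-value from limma was 0.054 to 0.16. Centring on the T-cell markers gave -0.83 (limma, adjusted p = 9.4e-05). Of 17 alternative settings, 6 put Dusp1 under an adjusted p-value of 0.05 by limma, and it was called in 0. The estimate for Dusp1 matched that of Dusp5 in size, with a standard error 0.09 in place of 0.04.

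Dusp10, which prefers JNK and p38 to ERK, had nearly the same level in both groups. Dusp10 (ENSMUSG00000039384, chromosome 1 from 184013302 to 184075636) had 9.28, 8.73 and 9.38 FPKM with cisplatin and 9.34, 9.60 and 9.82 FPKM in control. The ranges overlapped narrowly. Its log2 fold change came to -0.07 (95% interval -0.19 to 0.05, limma, adjusted p = 0.26), and a change of 2-fold either way lies outside this interval. It was 0.05 after quantile normalization (limma, adjusted p = 0.44) and -0.66 after centring on the T-cell markers (limma, adjusted p = 2.4e-05). The gene 1700056E22Rik lies within Dusp10 on the other strand at 1.13 FPKM with cisplatin and 1.55 FPKM in control, and whether reads were counted by strand is not given in the sources used here.

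The Sprouty genes were expressed at lower levels than the phosphatases, and of these only Spry4 was called. Spry4 (ENSMUSG00000024427, chromosome 18 from 38586268 to 38601268) had 0.424, 0.388 and 0.390 FPKM with cisplatin and 1.11, 1.04 and 0.924 FPKM in control. These levels rested on 58 to 63 reads per cisplatin library and 130 to 153 per control library. All cisplatin values were below all control values. Spry4 fell by 1.16 on the log2 scale (standard error 0.22, 95% interval -1.70 to -0.63, limma, adjusted p = 0.0040), on a scale that understates the change of a gene so near the pseudocount. With limma's voom on the rebuilt reads it was -1.35 (adjusted p = 3.5e-05), and the fold change went below 2 with a pseudocount of 1 (log2 fold change -0.53) and after quantile normalization (-0.97). A pair of small RNA genes overlap Spry4 on the other strand and averaged at most 1 read per library.

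Spry2, which restrains growth factor signalling to ERK, was not separated between the groups. Spry2 (ENSMUSG00000022114, chromosome 14 from 105891947 to 105896819) had 4.10, 3.96 and 5.62 FPKM with cisplatin and 6.001, 5.90 and 5.18 FPKM in control. Cisplatin replicate 3 stood above the lowest control library, and the other two cisplatin libraries stood below all control libraries. The estimate for Spry2 was a log2 fold change of -0.33 (95% interval -0.67 to 0.01, limma, adjusted p = 0.091), and without cisplatin replicate 3 it was -0.49 (limma, adjusted p = 0.0062). With any other library left out instead, the adjusted p-value from limma was 0.093 to 0.24.

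Spry1, a Sprouty gene that antigen signals induce in T cells, was the most variable of the 10 among control libraries. Spry1 (ENSMUSG00000037211, chromosome 3 from 37639947 to 37644598) had 1.94, 2.62 and 2.198 FPKM with cisplatin and 1.23, 2.18 and 1.75 FPKM in control, and the groups overlapped. The estimate for Spry1 was a log2 fold change of 0.39 (standard error 0.22, 95% interval -0.14 to 0.93, limma, adjusted p = 0.17), so neither a rise nor its absence can be read from these libraries. It was -0.19 after centring on the T-cell markers (limma, adjusted p = 0.44). Gm42922, on the other strand of Spry1, was at 0.0684 FPKM with cisplatin and 0.0263 FPKM in control.

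Spred1 fell nearly as much as Dusp6. SPRED1 is the protein that carries neurofibromin to RAS at the membrane. Spred1 (ENSMUSG00000027351, chromosome 2 from 117121374 to 117182279) had 5.17, 4.75 and 4.23 FPKM with cisplatin and 13.5, 13.4 and 13.4 FPKM in control. The SD of the control libraries was 0.643% of their mean, and the groups lay far apart. Spred1 fell by 1.496 on the log2 scale (standard error 0.08, 95% interval -1.68 to -1.31, limma, adjusted p = 7.3e-06), 2.82-fold lower with cisplatin. The ratio of Spred1 to Dusp6 FPKM within a library was 0.411 ± 0.033 after cisplatin pretreatment and 0.394 ± 0.0083 after PBS (SD, n = 3 each), so the difference between the groups was smaller than the SD of the cisplatin libraries.

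**Figure D2:**
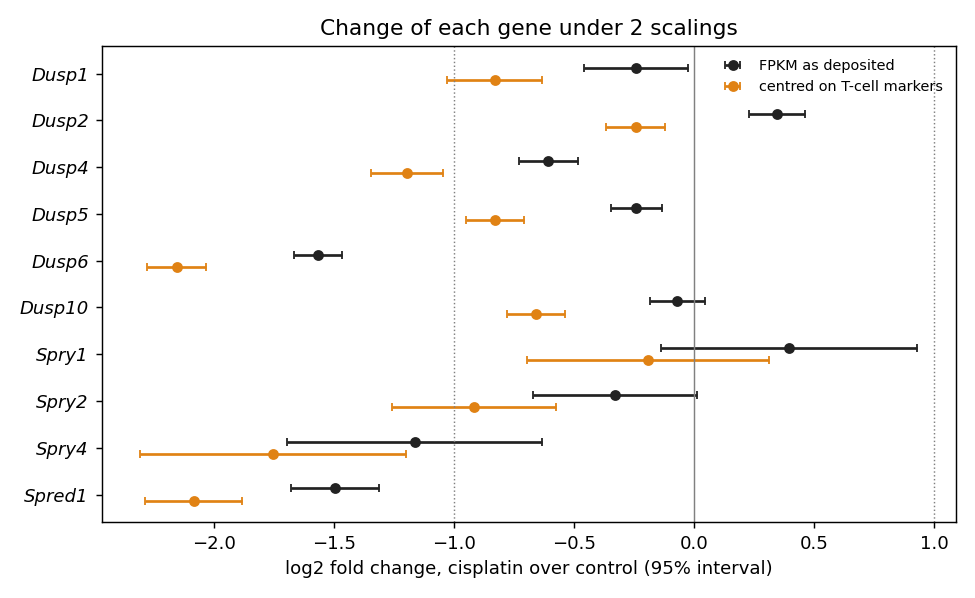
Log2 fold change of each gene, cisplatin over control, with its 95% interval from limma, on the FPKM as deposited (black) and after each library was centred on its T-cell markers (orange). The centring moves every gene to the left by about the same amount, which takes Dusp2 from 0.34 to -0.24 and Dusp4 past the dotted line of a 2-fold fall, to -1.20.

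The order of the levels changed between the groups. In control, Dusp4 (36.3 ± 1.95 FPKM, SD, n = 3) and Dusp6 (34.1 ± 0.811 FPKM) were the most abundant and overlapped, followed by Dusp5 (30.9 ± 0.374 FPKM) and Dusp2 (26.2 ± 0.857 FPKM). With cisplatin, Dusp2 came first (33.3 ± 1.78 FPKM, SD, n = 3) and did not overlap with Dusp5 (26.2 ± 1.36 FPKM), while Dusp5 and Dusp4 (23.8 ± 0.943 FPKM) overlapped, and Dusp6 followed at 11.5 ± 0.436 FPKM. Spred1 stood above Dusp1 and Dusp10 in control and below both with cisplatin, where it overlapped with Spry2. Spry1 and Spry4 were the least abundant in both groups.

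Shares within a library do not depend on how libraries are scaled to each other. The 6 DUSP genes summed to 113 ± 3.44 FPKM with cisplatin and 148 ± 1.57 FPKM in control (SD, n = 3 each). Dusp6 made up 10.1 ± 0.0771% of this sum with cisplatin and 23.0 ± 0.447% in control. Dusp2 made up 29.4 ± 1.48% with cisplatin and 17.7 ± 0.634% in control. Dusp4 went from 24.5 ± 1.19% in control to 21.0 ± 0.193%, Dusp5 from 20.9 ± 0.202% to 23.1 ± 0.581%, and Dusp10 from 6.46 ± 0.173% to 8.06 ± 0.256%, each with no overlap between groups. Shares of the same sum are tied, so a fall of 1 gene raises the shares of the others without a rise of their own. In FPKM, Dusp5 went from 30.9 in control to 26.2 with cisplatin, and Dusp10 from 9.59 to 9.13. The share of Dusp1 was 8.31 ± 0.929% with cisplatin and 7.503 ± 0.621% in control, and its groups overlapped. The ratio of Dusp6 to Dusp2 was 0.344 ± 0.0178 after cisplatin pretreatment and 1.30 ± 0.0703 after PBS (SD, n = 3 each). A test of 3 libraries against 3 cannot give a permutation p below 0.1, so these shares are given without a test. Among the Sprouty genes, Spry4 made up 5.63 ± 0.909% of the summed FPKM with cisplatin and 12.2 ± 1.02% in control, and Spry1 made up 31.4 ± 5.54% and 20.3 ± 4.91%, neither with overlap between groups. Spry2 held the largest share in both, 62.9 ± 5.82% and 67.5 ± 3.89%, and its groups overlapped.

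**Figure D3:**
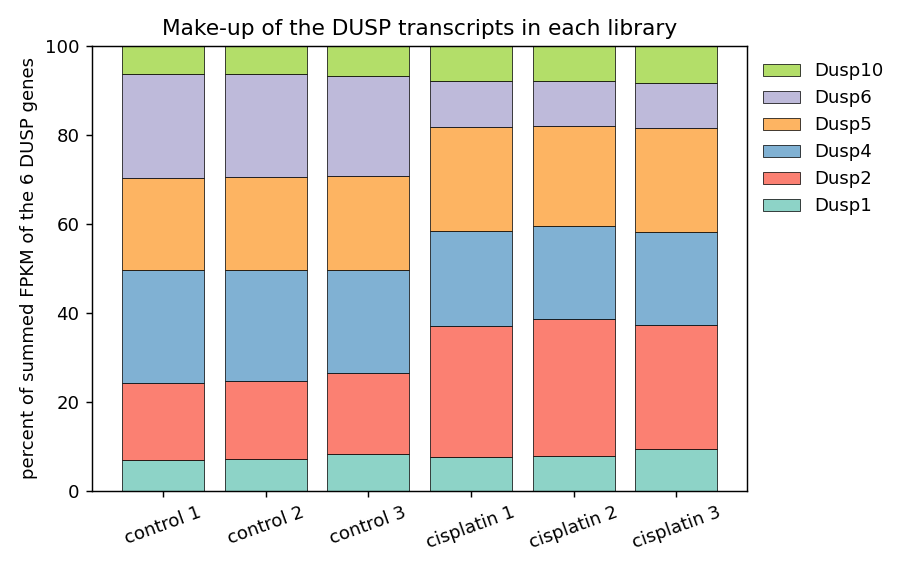
Percent of the summed FPKM of the 6 DUSP genes that each gene takes, in each control and cisplatin library. The Dusp6 segment shrinks from 22.5 to 23.4% in the control libraries to 10.1 to 10.2% in the cisplatin libraries, and the Dusp2 segment grows from 17.3 to 18.4% to 27.9 to 30.8%.

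Other genes of the same families were read from whole lists. These lists, and those of the cascades and of the ERK-induced genes below, were chosen with earlier results of these data known. Their shares beside those of all tested genes therefore describe the lists and do not test whether a list differs from other genes. Of 7 further MAP kinase phosphatases of the classical type, Sprouty and SPRED genes, 5 were tested and 4 were called lower and 0 higher (80% of the tested, beside 16.9% of all tested genes called in either direction). Spred2, the closest relative of Spred1, had 5.79 ± 0.0751 FPKM with cisplatin and 15.9 ± 0.760 FPKM in control (SD, n = 3 each), and fell by 1.44 on the log2 scale (limma, adjusted p = 1.3e-06). Spred3 had a log2 fold change of -1.37 (limma, adjusted p = 4.3e-04), and lies opposite Ggn, which was at 0.638 and 1.32 FPKM. All 3 SPRED genes were thus called lower. Dusp16, which acts on JNK and p38, had a log2 fold change of -1.33 (2.89 ± 0.192 against 7.39 ± 0.167 FPKM, SD, n = 3 each, limma, adjusted p = 7.8e-06). Dusp8 was called too, at 0.321 FPKM with cisplatin and 0.9997 FPKM in control, and like Spry4 it entered the test through its control level alone. Dusp7, an ERK phosphatase like Dusp6, had 12.2 FPKM with cisplatin and 12.4 FPKM in control (log2 fold change -0.03, limma, adjusted p = 0.61). Both were named after their values were seen. Of 9 tested atypical DUSPs, 3 were called lower and 0 higher (33.3%, beside 16.9% of all tested genes). They were Dusp18 (log2 fold change -2.70), Dusp3 (-1.32) and Dusp14 (-1.23). At the adjusted p-value alone 4 of the 9 were lower and 0 higher by limma, beside 29% and 27.5% of all tested genes. The median log2 fold change of the 9 was -0.08.

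In the cascade that these proteins restrain, 25 genes from adaptors to ERK were tested, and 5 were called lower and 0 higher, a share of 20% beside 16.9% of all tested genes. At the adjusted p-value alone 12 were lower and 6 higher by limma, beside 29% and 27.5% of all tested genes. Centring on the T-cell markers lowers every log2 fold change by 0.59, and the 6 rises turned negative with it. The part of cell make-up in these rises and falls was not tested. Map2k1, which encodes the kinase MEK1, had 30.1 ± 0.972 FPKM with cisplatin and 74.0 ± 1.34 FPKM in control (SD, n = 3 each), and fell by 1.30 on the log2 scale (limma, adjusted p = 4.5e-07). The RAS-related genes Rras (log2 fold change -1.41) and Rras2 (-1.34) and the adaptor Gab1 (-2.38) were called too. Nf1, the gene of neurofibromin, the partner of SPRED1, had a log2 fold change of -1.19 (limma, adjusted p = 3.0e-05). It shares its locus with Evi2a on the other strand, which was at 7.23 FPKM with cisplatin and 3.55 FPKM in control. Of 17 tested genes of the JNK and p38 cascades, Mapk12, a p38 kinase, was the only one called (log2 fold change -1.12, limma, adjusted p = 3.6e-04), a share of 5.88% that lies below the 16.9% of all tested genes. At the adjusted p-value alone 9 of the 17 were lower and 2 higher, beside 29% and 27.5% of all tested genes.

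Among 18 other genes that ERK induces, 8 were called lower and 0 higher, a share of 44.4% beside 16.9% of all tested genes. Ier3, an early response gene, went from 216 ± 6.52 FPKM in control to 30.3 ± 2.06 FPKM with cisplatin (SD, n = 3 each), and fell by 2.83 on the log2 scale (limma, adjusted p = 1.4e-07). The AP-1 gene Fos (log2 fold change -1.64), Phlda1 (-1.63), the ETS factor Etv4 (-1.499) and the growth factor gene Hbegf (-1.46) followed. At the adjusted p-value alone 11 were lower and 4 higher by limma, beside 29% and 27.5% of all tested genes. The latter were Egr3 (log2 fold change 0.87), Egr2 (0.57), Ier2 (0.31) and Myc (0.17), named after their values were seen. Egr1, named likewise, was called lower (8.28 FPKM with cisplatin, 17.2 FPKM in control, log2 fold change -1.05, limma, adjusted p = 1.2e-05). After the centring, Egr3 alone of the 4 genes that rose kept a positive log2 fold change (0.28). The part of cell make-up in these rises was not tested. The summed ID8 markers were 6.56-fold lower with cisplatin, Krt19 had a log2 fold change of -3.61, and the part of ID8 RNA in the falls of these lists was not tested.

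**Figure D4:**
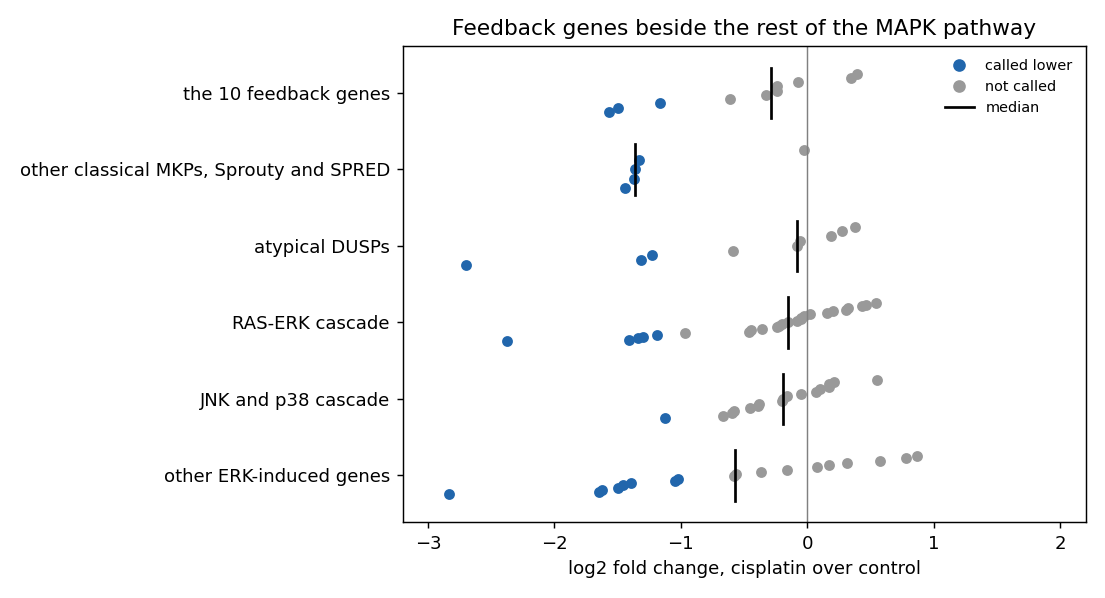
Log2 fold change, cisplatin over control, of the 10 feedback genes and of the tested genes of 5 further MAPK lists, with called genes in blue, others in grey and the median of each list as a black bar. The medians were -0.29 for the 10 genes, -1.36 for the other classical phosphatases, Sprouty and SPRED genes, -0.08 for the atypical DUSPs, -0.15 for the RAS-ERK cascade, -0.20 for the JNK and p38 cascade and -0.57 for the other ERK-induced genes, beside 0.03 for all tested genes.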

How the data were processed

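RNA-seq libraries of 6 T-cell co-cultures (3 cisplatin, 3 control) were compared. According to the methods, the authors removed low-quality and adaptor-containing reads and counted reads on known genes with LifeScope, while the submitters' processing notes name fastp, HISAT2 2.0.5, featureCounts 1.5.0-p3 and mm10. The authors deposited FPKM values. The table held 0 columns of other samples. Whole reads were rebuilt from FPKM times gene length, with 99.996% of values or more per library within 0.1 of a whole read. They give the depth, and the voom fit and the alternative shares used them too. As read numbers they cover counting error only.

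With limma 3.58.1 (R 4.3.3, lmFit and eBayes with trend), log2(FPKM + 0.1) was compared between the groups for genes that averaged 0.5 FPKM or more, with Benjamini-Hochberg adjustment over all of them. The thresholds are those of the study's own comparison. The steps were tested on simulated data in which a small set of genes changed, equally in both directions, and all others did not. A shift in cell make-up was not simulated, so that test does not cover its effect on the calls. The 10 genes and all lists were chosen with earlier results of these data known. The lists held 158 symbols, 2 of them found under an older symbol, and 0 were missing. Besides the 10 genes, the text names up to 5 called genes per pathway list with the largest absolute log2 fold change whose higher group averaged 1 FPKM or more, and the markers Cd3e, Krt19, Cd79a and Lyz2. The alternatives were pseudocounts of 1 and 0.01, no filter or a minimum mean of 5 FPKM, median of ratios, quantile normalization, centring on 24 T-cell markers, TPM, voom on the rebuilt reads (at least 10 in 3 libraries, TMM), no variance trend, no fold-change minimum, leaving out each library, and the replicate number as a block. For the shares, rebuilt reads not divided by length were the alternative. Figures were drawn with matplotlib 3.10.9.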

Additional observations from a re-analysis of the deposited data

How the results depend on the processing

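Besides the setting without the fold-change minimum, which uses the same estimates, there were 17 alternatives. Dusp6 and Spred1 were called lower in all 17, and Spry4 in 14 of the 16 in which it was tested. Called lower were 3 of the 10 genes without each library in turn, 4 after centring on the T-cell markers (Dusp4 at -1.20), and 2 with a pseudocount of 1 (Spry4 at -0.53), after quantile normalization (Spry4 at -0.97) and with the 5 FPKM minimum, which leaves Spry4 and Spry1 untested. Without the fold-change minimum 5 were lower and 1 higher. The sign changed for Dusp2 (-0.24) and Spry1 (-0.19) after the centring, which moves the median of all tested genes to -0.56, and for Dusp10 (0.049) after quantile normalization, which moves it to 0.16.

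Of all tested genes, 2034 were called lower and 653 higher (75.7% lower). With the 5 FPKM minimum it was 903 and 242, after the centring 3812 and 137 (96.5% lower), without the fold-change minimum 4603 and 4360 (51.4% lower), and with a pseudocount of 1 it was 311 higher. Quantile normalization gave 64.6% lower. The other classical phosphatases, Sprouty and SPRED genes had 2 called with a pseudocount of 1 and 2 with the 5 FPKM minimum. With that minimum the atypical DUSPs had 1, the RAS-ERK cascade 3, the JNK and p38 cascade 0 and the ERK-induced genes 5. Of all 15874 tested genes, 3812 were called lower and 137 higher after the centring, and 56.5% were called without the fold-change minimum. The counts of the lists at these 2 settings are to be read beside those shares. The RAS-ERK cascade had 8 of 25 called after the centring and 18 of 25 without the fold-change minimum. Of its 17 tested genes, the JNK and p38 cascade had 0 called with a pseudocount of 1 and 0 after quantile normalization, 5 after the centring and 11 without the fold-change minimum. The ERK-induced genes had 5 of 18 called with a pseudocount of 1 and 15 of 18 without the fold-change minimum. Leaving out 1 library gave 2 to 3 atypical DUSPs and 7 to 8 ERK-induced genes. In shares of rebuilt reads, which weigh long genes more, the differences of cisplatin minus control were 10.1 percentage points for Dusp2, 3.27 for Dusp5, -14.5 for Dusp6, 2.33 for Dusp10 and -11.4 for Spry4.

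With the replicate number as a block, 3 of the 10 genes were called lower, as without it, and 2011 genes were lower and 651 higher overall. The block brought Dusp1 to an adjusted p of 0.014 from limma. Libraries of the same number did not deviate together (correlations -0.06 to 0.02), and the labels do not say that a number marks a shared mouse or day. The depth limits Spry4 and Spry1, with 58 to 252 reads per library.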
